A study of Homo sapiens with 30 samples.

Results

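The mRNAs described here are RAB13, NET1, KIF1C, DYNLL2 and TRAK2, 5 transcripts known from other cell types to accumulate in cell protrusions. They were taken by name from 62750 genes in the count tables, and every crosslink peak whose centre lay inside one of these genes on its own strand was assigned to it. The cells were U-87 MG, a human glioblastoma line. Parental cells carried no transgene, and 5 derived lines expressed a codon-optimised, myc-tagged LARP6 from a doxycycline-inducible lentiviral construct after puromycin selection: the full-length protein (FL), or LARP6 without its disordered N-terminal region (ΔNTR), without the folded La-module (ΔLa-module), without the whole N-terminal domain that joins both (ΔNTD), or without the C-terminal region (ΔCTR). All lines, parental included, received 60 ng/mL doxycycline for 24 h, and endogenous LARP6 was still present in them. The iCLIP experiment, which maps protein to RNA contacts after UV crosslinking, had 3 replicates per line, but each variant has a single pooled peak list from which parental peaks were already removed. RNA input was 1 long-RNA and 1 small-RNA library per line. No test between groups was therefore possible, and all intervals below are 95% intervals that cover counting error only.

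A localised mRNA carries its address mostly in its 3'UTR, where RNA-binding proteins and motor adaptors attach and move it along microtubules. Several mRNAs of this kind depend on the tumour suppressor APC and on stretches rich in G and A in the 3'UTR, and RAB13 is the best known of them. LARP6 is a La-related protein that binds mRNAs through its La-module and has been linked to the transport of ribosomal protein mRNAs into protrusions. The proteins of the 5 genes have different functions. RAB13 is a small GTPase of vesicle traffic, NET1 activates RhoA, KIF1C is a kinesin motor that itself carries RNA, DYNLL2 is a light chain shared by dynein and myosin V, and TRAK2 couples mitochondria to motors.

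The peaks that score highest in these mRNAs are shown first, because the binding described below rests on them. Each run is the middle of a peak on the coding strand of GRCh38, at most 30 bases, and capitals mark its longest run of C and T of at least 5 bases. The KIF1C sites lie at chr17:5022137-5022166 and chr17:5022221-5022250, both in exon 22 of 23 and in coding sequence. The DYNLL2 sites lie at chr17:58090076-58090102 and chr17:58090116-58090137, all in the 3'UTR, and that of TRAK2 at chr2:201380186-201380207, on the minus strand, also in the 3'UTR.
KIF1C peak of score 28: gaagagagctggaggctcaTCTCCTCCTTg
KIF1C peak of score 35: cccagcagtggcaagcgcagggCCCCTCgc
DYNLL2 peak of score 5: ccctcagTTTCCTCattcctctggagt
DYNLL2 peak of score 8: CCCCTgttgttagttggctggc
TRAK2 peak of score 4: cacatttaCTTCTggtaagcat

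The second set shows the longest run of A and G in the 3'UTR of each mRNA, because such stretches are the element known for RAB13 localisation. Here capitals mark the run, and for RAB13 the first 30 bases of a longer run are given. They lie at chr1:153981919-153981948 (minus strand), chr10:5457957-5457986, chr17:5024308-5024337, chr17:58090268-58090297 and chr2:201380304-201380333 (minus strand).
RAB13: AGAAAGGAAAAAAAGGAAGAGAGAGGAAGG
NET1: ttAAAAGAAAAAGAGAGGAAAAGAGAGtag
KIF1C: ggaggctGAGGAAAGGAAGAGGGcacggag
DYNLL2: tggggtAGAAGGGAGGGAGGGGGcaggaca
TRAK2: gtgttcAGAGGGAGAAAAGAAAGGtttaat

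The FL, ΔNTR and ΔCTR lists held 14334, 17180 and 15870 peaks, while the ΔLa-module list held 636 and the ΔNTD list 291. A peak's score is the authors' sum of crosslinks in peaks called per replicate. Its minimum is 3, and it was not scaled to depth. Crosslinks of a replicate without a called peak are left out, so a score of 3, 4 or 5 comes from a single replicate. The FL list summed to 102788, and ΔNTR reached 0.904 times and ΔCTR 1.16 times this total. Long-RNA libraries held 25027075 to 28692476 counts in genes. The mesenchymal markers of this line were abundant (VIM 7039 to 8004 CPM, counts scaled to library size, and CD44 2083 to 2336), 3 of 4 glial markers (GFAP, SOX2 and S100B) stayed at or below 0.240 CPM and OLIG2 at or below 2.54 CPM. Of the epithelial, blood and endothelial markers KRT8 was the highest, at up to 6.07 CPM, and CDH1 and PTPRC were near 0. LARP6 itself had 51.6 to 74.96 CPM, a value that does not check the labels because the transgenes are codon-optimised.

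Binding of the 5 mRNAs fell into 2 classes. KIF1C and DYNLL2 carried most of the crosslinks, and RAB13, NET1 and TRAK2 carried few or none. The FL list had 21 member peaks with a summed score of 135, the ΔNTR list 32 peaks with 151, and the ΔCTR list 18 peaks with 95. The ΔLa-module list held 2 peaks, one in DYNLL2 and one in TRAK2, each with the minimum score, and the ΔNTD list none. At the FL share of peaks, lists of those sizes would hold 0.932 and 0.426 member peaks. Over the 5 mRNAs together the score of ΔNTR was 1.12 times that of FL (0.881 to 1.42), or 0.898 times (0.676 to 1.19) with only scores above 3, and the score of ΔCTR 0.704 times (0.535 to 0.922), but 1.15 times (0.736 to 1.80) when KIF1C was left out.

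Of the 5 genes, 3 had a peak in FL, against 47.8% of the 9096 protein-coding genes with at least 10 CPM. The ΔNTR list had peaks in 3, against 49%, and the ΔCTR list in 4, against 50.8%. For ΔLa-module it was 2 against 4.57%, and for ΔNTD 0 against 2.44%. Only in ΔLa-module was the share of members far from the background, and it rests on 2 peaks of the minimum score. Neither overlapped a peak of FL, ΔNTR or ΔCTR. The share of the whole ΔLa-module list that overlapped them was not computed, so this is no result about the members. In that list 76.7% of peaks had the minimum score.

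KIF1C (ENSG00000129250, chr17:4997950-5028401, plus strand) had the highest score of the 5 mRNAs. In FL its 11 peaks summed to 95 (76.9 to 116), a score above that of 95.4% of the protein-coding genes with a peak. The coding sequence took 70 of this score in 4 peaks, the 3'UTR 13 in 4 peaks and the 5'UTR 12 in 3 peaks. KIF1C was thus bound mainly in its coding sequence, although its annotated 3'UTR is longer, 4250 against 3312 nt.

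Most of the KIF1C signal came from both exon 22 sites shown above, whose centres lay 1242 and 1158 nt upstream of the stop codon. In FL they scored 28 and 35 and made up 66.3% of the gene's score, and 96.5% and 97.4% of all FL peaks had a lower score. No other KIF1C peak in FL exceeded 4. Both sites had overlapping peaks in the ΔNTR list, with scores of 19 and 13, and in the ΔCTR list, with 16 and 15. At the site of score 35 the ratio to FL was 0.371 in ΔNTR (0.180 to 0.720) and 0.429 in ΔCTR (0.217 to 0.805). At the site of score 28 both intervals included 1, with ratios of 0.679 (0.358 to 1.26) and 0.571 (0.289 to 1.09). Both sites thus scored lower in both deletions, and only at the downstream one did the intervals exclude 1. The sites were picked as the highest FL peaks of the gene, so lower scores in other lists are partly built in. The intervals do not allow for that choice.

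The KIF1C sum behaved differently in the deletions. In ΔNTR it was 108 (88.6 to 130), 1.14 times FL (0.855 to 1.51), but spread over 20 peaks, of which 9 had the minimum score. The number of peaks was 1.82 times that of FL (0.83 to 4.20), against 1.20 times over the whole list. The 2 highest ΔNTR peaks made up 29.6% of the score. That share fell by 36.7 percentage points from FL, against a median difference of -11.8 points over 534 genes with a score of at least 30 in both lists, and 5.62% of those genes had a lower value. The coding sequence took 71 of the ΔNTR score, close to the 70 of FL, but in 11 peaks, of which 4 overlapped FL peaks (42 of the score) and 7 did not (29). All 7 peaks in the 3'UTR lay within 451 nt of the stop codon, and 5 of them did not overlap FL. Over the whole gene 7 of 20 ΔNTR peaks overlapped FL, 35.0%, near the 30.1% of the whole list. A 5'UTR peak in ΔNTR, 215 nt from the start of the mRNA, scored 9 and had no counterpart in FL or ΔCTR.

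In ΔCTR the KIF1C sum was 49 (36.3 to 64.8) in 8 peaks. This was 0.516 times the FL score (0.358 to 0.736), and 0.447 times (0.310 to 0.637) when each score was taken as a share of its list. Among 685 genes that scored 30 or more in FL, the median of this share ratio was 0.928, with quartiles of 0.707 and 1.18, and 5.99% of genes lay below KIF1C. The 5'UTR of KIF1C held no peak in ΔCTR, against 3 in FL and 2 in ΔNTR. The share of the whole list in 5'UTRs was 2.79% in ΔCTR, 4.54% in FL and 4.29% in ΔNTR.

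DYNLL2 (ENSG00000264364, chr17:58083419-58095542, plus strand) had close summed scores in FL, ΔNTR and ΔCTR, and scores of 3 in ΔLa-module and 0 in ΔNTD. FL and ΔNTR both summed to 36 (25.2 to 49.8), in 9 and 10 peaks, and ΔCTR to 33 (22.7 to 46.3) in 6 peaks. The ratios to FL were 1.00 in ΔNTR (0.612 to 1.63) and 0.917 in ΔCTR (0.554 to 1.51), and counting error alone leaves room for ratios anywhere within those bounds. Every DYNLL2 peak in these lists lay in the 3'UTR, which is 6263 nt long, against a coding sequence of 270 nt.

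In every list that held any, the DYNLL2 peaks lay in the proximal part of this 3'UTR. Those of FL lay 76 to 1672 nt after the stop codon, those of ΔNTR 482 to 1795 nt and those of ΔCTR 62 to 1838 nt, and the single ΔLa-module peak lay at 1552 nt. The last FL peak thus stood at 26.7% of the annotated 3'UTR's length, and the last 4425 nt of the annotated mRNA held no peak centre in any list. Whether these cells use the full annotated 3'UTR was not tested. Over all FL peaks in 3'UTRs of at least 5000 nt the median position was 33.1%. Of 21 genes with such 3'UTRs and at least as many FL peaks as DYNLL2, 1 (DYNLL2 counted) had its last peak as early. In ΔNTR it was 3 of 29 and in ΔCTR 8 of 73.

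Although the sums were alike, most DYNLL2 sites of FL were not shared, which also held for the whole FL list. The FL peaks of score 5 and 8 shown above, at 810 and 847 nt, overlapped ΔCTR peaks that scored 9 each, and no ΔNTR peak. The highest ΔNTR peak, of score 8 at 1012 nt, covered the run of 17 A and G bases printed above, and the FL peak it overlapped had the minimum score of 3. ΔCTR overlapped 4 of the 9 FL peaks and ΔNTR 2, where 37.9% and 35.3% of all FL peaks were overlapped. No DYNLL2 peak of ΔNTR overlapped any of ΔCTR, against 31.8% over the list. Of these 10 ΔNTR peaks 8 had the minimum score, at which the share over the list was 16.2%. Within 50 nt, 4 of the FL peaks lay near ΔCTR and 6 near ΔNTR, so the order of both deletions depends on how near counts as shared.

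**Figure D1:**
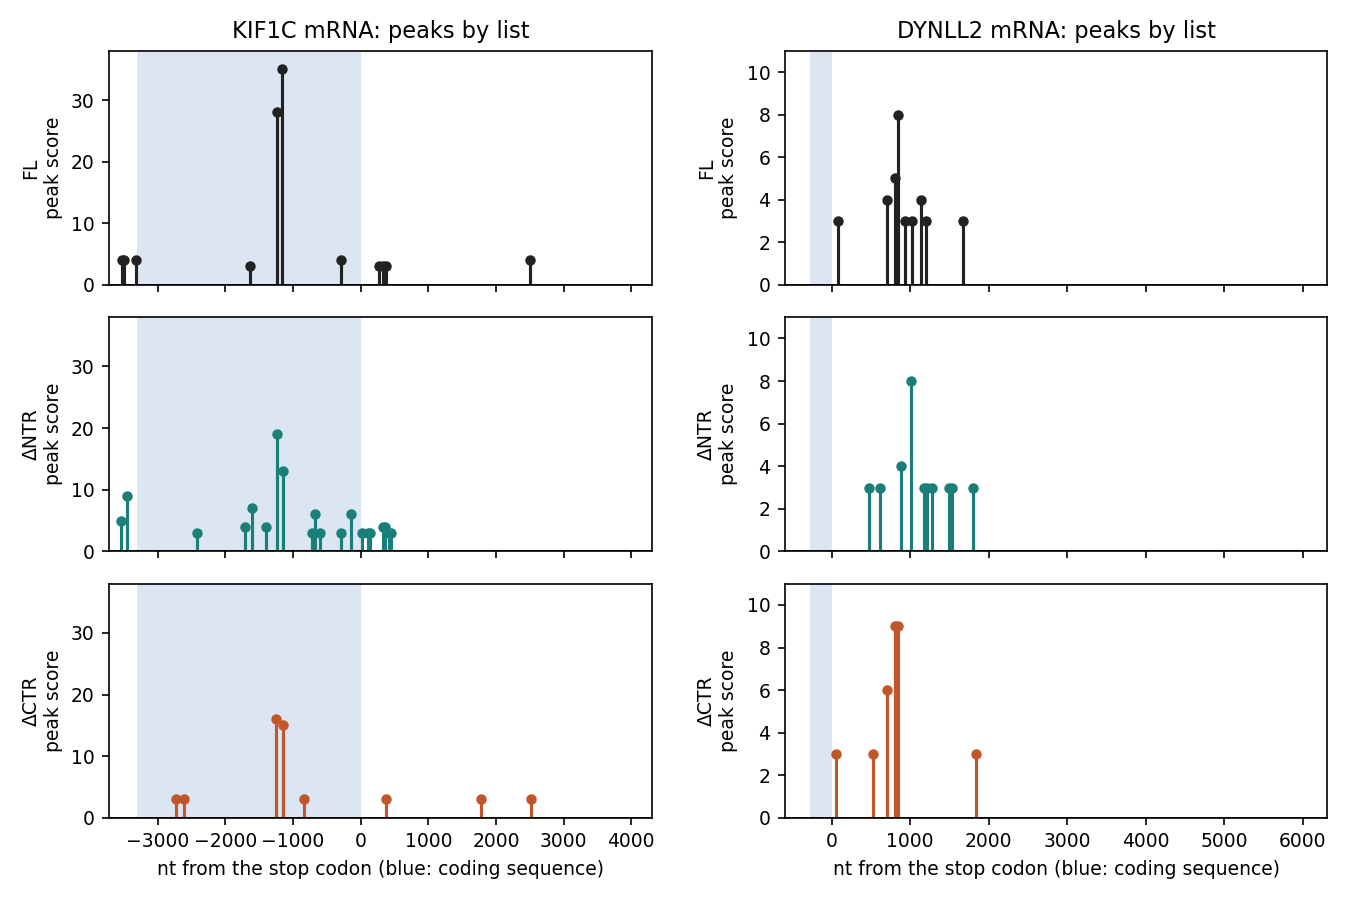
Peak scores (vertical axes, crosslinks) along the KIF1C and DYNLL2 mRNAs in 3 lists, plotted by distance of the peak centre from the stop codon in nt, with the coding sequence shaded. KIF1C shows 2 tall neighbouring peaks in the coding sequence in each list and more small peaks in ΔNTR, and DYNLL2 peaks stop at 1838 nt after the stop codon.

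TRAK2 (ENSG00000115993, chr2:201377207-201451500, minus strand) was bound weakly for its abundance. It had 1 FL peak of score 4, 347 nt after the stop codon. In ΔNTR it had 2 peaks of score 4 and 3, the first in the 3'UTR and the second in an intron, and in ΔCTR 2 of score 4 and 3, the first in the 3'UTR and the second in coding sequence. None of these peaks overlapped another of these lists, where 30.1% to 37.9% of whole-list peaks did, depending on the pair. The ratio to FL of 1.75 in either deletion had an interval of 0.445 to 8.15. Per 1000 long-RNA counts of its line TRAK2 had a score of 1.04 in FL, and 9.41% of genes with a peak lay below.

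NET1 (ENSG00000173848, chr10:5412557-5459056, plus strand) had no peak in FL, ΔNTR, ΔLa-module or ΔNTD. In ΔCTR it had 2 peaks of the minimum score of 3, at 257 and 1065 nt after the stop codon in its 3'UTR of 2062 nt. RAB13 (ENSG00000143545, chr1:153981617-153986358, minus strand) had no peak in any list. The lists hold no value below 3, so an absent peak gives no upper limit. RAB13 had the lowest counts of the 5 mRNAs, but these leave out reads in the 682 nt that it shares with a read-through gene. Among protein-coding genes of 10 to 30 CPM, the range of its counts as deposited, 19.6% had a peak in FL, against 46.8% at 30 to 100 CPM, the range of NET1 and DYNLL2, and 80.1% at 100 to 300 CPM, the range of TRAK2 and KIF1C.

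**Figure D2:**
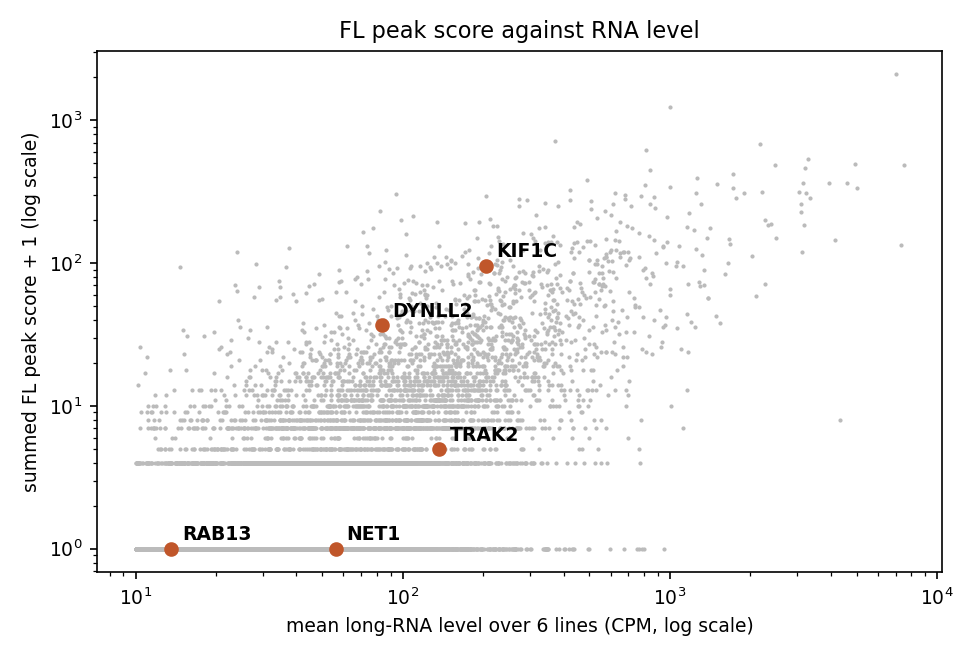
Summed FL peak score plus 1 against the mean long-RNA level in CPM over 6 lines for 9096 protein-coding genes of at least 10 CPM (both axes on a log scale), with the 5 mRNAs marked. KIF1C, at 204 CPM, and DYNLL2, at 83.4 CPM, lie high for their level, TRAK2, at 137 CPM, lies low, and RAB13 and NET1 are among the genes at 0.

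Taken per 1000 counts of the same line, the FL scores were 16.2 for KIF1C (13.1 to 19.8) and 15.4 for DYNLL2 (10.8 to 21.3). The median over genes with a peak was 3.38, and 93.3% and 92.7% of them lay below. In ΔNTR the values were 18.1 and 16.3 against a median of 3.78, and for ΔCTR 9.30 (6.88 to 12.3) and 14.03 (9.66 to 19.7) against 3.94. KIF1C and DYNLL2 could not be told apart on this scale in FL and ΔNTR, and their intervals also overlapped in ΔCTR. NET1 reached 4.07 in ΔCTR (1.49 to 8.86), near the median.

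Peaks of the 5 mRNAs were compared between lists. Peaks of ΔNTR overlapped 9 of 21 FL peaks by at least 1 nt, 42.9% (Wilson interval 24.5 to 63.5), and those of ΔCTR overlapped 8, 38.1% (20.7 to 59.1). Over all FL peaks the shares were 35.3% and 37.9%. Read from the other side, 10 of 32 ΔNTR peaks (31.2%) and 8 of 18 ΔCTR peaks (44.4%) overlapped FL, against 30.1% and 34.4% of the whole lists. Of 32 ΔNTR peaks 3 overlapped ΔCTR, 9.38% (3.24 to 24.2), where the whole list had 31.8%, and all 3 were in KIF1C. Within 50 nt it was 9 of 32, 28.1% (15.6 to 45.4), against 43.4%, so this difference depends on how near counts as shared. Of the 32 ΔNTR peaks 18 had the minimum score, and none of those 18 overlapped ΔCTR, against 16.2% over the list.

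By region, 14 of 21 FL peaks lay in 3'UTRs, 4 in coding sequence and 3 in 5'UTRs. In ΔNTR it was 18, 11 and 2 of 32, with 1 intronic, and in ΔCTR 12 and 6 of 18, with none in 5'UTRs. The 3'UTR shares, 66.7%, 56.2% and 66.7%, compare with 47.6%, 49.7% and 50.8% of whole lists. This share rested on DYNLL2, since KIF1C had 4 of 11, 7 of 20 and 3 of 8 peaks in its 3'UTR.

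The sequences around the peaks were searched for runs. Within 31 nt around the centre, on the transcript strand, 8 of 21 FL peaks held at least 8 successive C or T bases, 38.1% (20.7 to 59.1), against 14.8% of all FL peaks and 19.0% of all FL peaks in 3'UTRs. In ΔNTR it was 6 of 32, 18.8% (8.89 to 35.3), against 15.2%, and in ΔCTR 2 of 18, 11.1% (3.10 to 32.8), against 13.5%. Runs of at least 8 A or G bases were found at 4 FL, 6 ΔNTR and 4 ΔCTR peaks, 19.0%, 18.8% and 22.2%, against 8.98%, 8.81% and 8.78%. The median share of C and T in these windows was 48.4%, 48.4% and 50.0%, against 51.6% in each whole list. Peaks in 1 mRNA are neighbours and share sequence, so they are not independent.

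The printed runs of A and G give the complementary view. RAB13 had 8 runs of at least 8 A or G with at least 2 G in a 3'UTR of 449 nt, 17.8 per kb, the longest of 45 bases, and 99.95% of 8401 3'UTRs of genes of at least 10 CPM had a lower density. No peak lay in that gene. NET1 had 12 runs (5.82 per kb, the longest of 25 bases), TRAK2 20 (5.99 per kb), DYNLL2 34 (5.43 per kb) and KIF1C 11 (2.59 per kb), and the median 3'UTR had 3.54 per kb. FL peaks covered part of 2 KIF1C runs and 1 DYNLL2 run, ΔNTR peaks 4 and 3, and ΔCTR peaks 1 run each in NET1 and DYNLL2. The single TRAK2 peak of ΔLa-module touched 2 runs. The longest runs of RAB13, NET1, KIF1C and TRAK2 had no peak on them in any list, and that of DYNLL2 had one in ΔNTR. The share of such runs touched by peaks over all 3'UTRs was not computed. These counts therefore do not show whether peaks favour or avoid the runs.

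The closest relatives were measured alongside. KIF1B, another kinesin of the same family and of like count, had an FL score of 11 in 3 peaks, 1.87 per 1000 counts (0.932 to 3.34), below the interval of KIF1C, and KIF1A was not expressed (0.0123 CPM). DYNLL1, the other light chain gene of this kind, had a score of 6, or 0.979 per 1000 counts (0.359 to 2.13), below the interval of DYNLL2, and its mRNA of 663 nt lacks the long 3'UTR. TRAK1 had 3, or 2.08 per 1000 counts (0.430 to 6.09), overlapping TRAK2. ARHGEF3, the relative of NET1, had no peak in any list. The relatives of RAB13 had FL scores of 5 in RAB8A, 17 in RAB8B and 93 in RAB10, or 1.34 (0.434 to 3.12), 9.49 (5.53 to 15.2) and 14.5 (11.7 to 17.7) per 1000 counts. RAB8A lay below both others, whose intervals overlapped. RAB13, with 524 counts and no value below 3 in the list, could not be told apart from RAB8A.

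Of 7 other mRNAs known from protrusions, 6 had a peak in each of FL and ΔCTR, 5 had one in ΔNTR and 1 in ΔLa-module, where the shares of all genes of at least 10 CPM were 47.8%, 50.8%, 49% and 4.57%. The 6 with an FL peak lay at 68.2 to 253.0 CPM, levels at which 46.8% (30 to 100 CPM) and 80.1% (100 to 300 CPM) of genes had an FL peak, so their count is no result about them. The highest FL scores were those of DDR2 (48, a collagen receptor), PALLD (15, an actin-binding protein) and KANK2 (8, a protein of cell adhesions), and PALLD had none in ΔNTR. Of 10 genes whose products transport such mRNAs or work with the 5 proteins, the lists of FL, ΔNTR and ΔCTR each had peaks in 6, and the other lists each in 1, to be read against the same shares and 2.44% for ΔNTD. Here DYNC1H1, the dynein heavy chain, had an FL score of 363, KIF5B, a kinesin heavy chain, 36, and FMR1, an RNA-binding protein, 17. DYNC1H1 lay at 3950 CPM. Per 1000 long-RNA counts these FL scores were 3.19, 2.75 and 7.80, against a median of 3.38 over genes with a peak. The same values of DDR2, PALLD and KANK2 were 6.76, 3.37 and 1.58. None of these genes and relatives that passed the level filter (KIF1A did not) changed 2-fold in long RNA in any line.

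The levels of the 5 mRNAs are given in the order parental, FL, ΔNTR, ΔCTR, ΔLa-module and ΔNTD. RAB13 had 12.6, 18.7, 13.3, 13.1, 13.9 and 10.1 CPM. NET1 had 58.8, 56.0, 51.8, 54.4, 54.4 and 61.9 CPM. KIF1C had 185.6, 209.3, 239.1, 194.6, 202.2 and 195.9 CPM. The highest and lowest lines differed 1.84-fold for RAB13, 1.19-fold for NET1 and 1.29-fold for KIF1C, against a median of 1.19-fold over protein-coding genes of at least 10 CPM. DYNLL2 had 81.7, 83.4, 88.2, 86.9, 82.1 and 77.8 CPM. TRAK2 had 136.7, 137.3, 135.8, 143.2, 131.8 and 138.7 CPM. Per kb of mRNA, which allows genes to be ranked, the means over lines were 25.8 CPM for KIF1C, 21.5 for TRAK2, 14.1 for NET1 and 12.3 for DYNLL2. RAB13 could not be ranked: its counts gave 11.7 CPM per kb of the whole mRNA and 28.3 CPM per kb of the 482 nt that no other gene shares.

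Against parental cells, no member passed 2-fold in any line. Of all 14057 genes compared, 0.0569% did so in FL and 0.0783% in ΔCTR, and 0.754%, 0.413% and 0.334% in ΔNTR, ΔLa-module and ΔNTD. The largest difference was that of RAB13 in FL, 1.48 times parental (1.29 to 1.70), from 524 against 338 counts, or 0.53 on the log2(CPM + 1) scale. Among 1769 genes within a 2-fold window of its level, 0.791% changed by more in FL. RAB13 was at 0.804 times parental in ΔNTD (0.684 to 0.945), where 20.9% of those genes changed by more. It was within counting error of parental in the other 3 lines. The read-through gene, on the same strand (ENSG00000285641), covers 58.6% of the 1164 nt of the RAB13 mRNA. Reads in shared sequence are dropped as ambiguous, so the RAB13 counts understate its level in every line.

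KIF1C was 1.29 times parental in ΔNTR (1.24 to 1.34) and 1.13 times in FL (1.08 to 1.17), or 0.36 and 0.17 on the log2 scale. It was above parental beyond counting error in the other 3 lines too. All these ratios share a single parental library, the one with the lowest KIF1C level. Among 977 genes near its level, 7.16% changed by more in ΔNTR and 17.0% in FL. In ΔCTR, ΔLa-module and ΔNTD it was 57.8%, 38.4% and 61.3%. NET1 was 0.881 times parental in ΔNTR (0.818 to 0.949). DYNLL2 lay between 0.953 and 1.08 times parental, and TRAK2 between 0.964 and 1.05 times. The ΔNTR line thus held more KIF1C RNA than FL, and on the per-count scale above, which uses the counts of each line, the KIF1C score was 18.1 in ΔNTR and 16.2 in FL, with overlapping intervals.

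By the Euclidean distance over 6 values, the log2 score and the log2 level in FL, ΔNTR and ΔCTR, the protein-coding gene most like KIF1C among 9096 was SDC1 (distance 0.583), with scores of 84, 88 and 66. For DYNLL2 it was EBNA1BP2 (0.470), with 37, 35 and 36, and for TRAK2 DLGAP4 (0.321), with 4, 6 and 6. NET1 was nearest to ENOPH1 (0.0671), which also scored only in ΔCTR, and RAB13 to EXOSC7 (0.166), without a peak in these lists.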

How the data were processed

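Per the study's methods and labels, the authors trimmed iCLIP reads, removed those mapping to rRNA or tRNA with Bowtie 2, aligned the rest with STAR to GRCh38.p13, removed duplicates with UMI-tools and called peaks with Clippy. Peaks of replicates were merged, and those of parental cells subtracted with bedtools 2.30.0. The deposited peak score is the authors' sum of crosslinks in peaks called per replicate, which was not scaled. The deposited counts are STAR 2.7.10b reads per gene after Trim Galore 0.6.10; column 4 was used for long RNA and column 3 for small RNA, as strand required. Peak centres were assigned with GENCODE release 44 on GRCh38, a later release than the authors', in the order CDS, 5'UTR, 3'UTR, ncRNA, intron. Lengths and distances along an mRNA refer to the annotated canonical transcript of each gene, and the transcript ends used in these cells were not measured. Counts were scaled to CPM with TMM (edgeR 4.0.16), and changes taken as log2(CPM + 1) for genes of a mean CPM of at least 1. Intervals are Poisson, Wilson or exact binomial at 95%. Each pooled list and each library stands alone, so no p-value was computed. Code was tested on simulated data. The 5 mRNAs are those given by name, and members and lists, relatives included, were chosen with earlier results of these data known. Named genes are the members, all relatives, the 3 highest FL scores of each other list, and the nearest gene of each member. Alternatives tried were other scalings (DESeq2 1.42.0), pseudocounts, strand settings, score minimums, overlap rules and region orders.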

Additional observations from a re-analysis of the deposited data

Results flagged for a closer look

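RAB13 long RNA lay on opposite sides of parental in 2 lines: it was 1.48 times parental in FL (1.29 to 1.70) and 0.804 times parental in ΔNTD (0.684 to 0.945), each from 1 library. Among genes near its level 0.791% changed by more in FL, but 20.9% did so in ΔNTD. The difference between these lines was not tested, and reads in sequence shared with a read-through gene are not counted.

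In the small-RNA libraries, which the comparisons above do not use, KIF1C had 23 counts in ΔCTR and 18 in parental cells, a ratio of 2.13 after scaling to the counts in genes, with a lower 95% bound of 1.1. The difference depends on this scaling: with TMM the ratio was 1.71 (0.884 to 3.37) and with DESeq2 size factors 1.80 (0.929 to 3.54), both scalings added after seeing the data. This was 1 of 25 such values (5 mRNAs in 5 lines), and the small-RNA counts of the 5 mRNAs ranged from 0 to 30.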

How the results depend on the processing

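Of 189 recomputed values, 176 stayed within the interval or within 1.5 times of the value reported, among them all 125 of long-RNA changes. Counting only scores above 3 left 12, 14, 6 and 0 member peaks in FL, ΔNTR, ΔCTR and ΔLa-module, with summed scores of 108, 97, 59 and 0, and a 3'UTR share of 35.7% in ΔNTR. Overlap of FL peaks with ΔNTR was 23.8% when 50% of both peaks had to overlap and 71.4% within 50 nt. Runs of at least 10 bases were found at 0% (A or G) and 14.3% (C or T) of FL peaks. The score ratio of ΔCTR to FL over the 5 mRNAs, 0.704 (0.535 to 0.922), became 1.15 (0.736 to 1.80) without KIF1C, an alternative added after seeing the data, so the lower ratio rests on KIF1C. No paired analysis was possible because neither the lists nor the libraries share replicate numbers beyond 1 per line. No replicate could be left out for the same reason, and spread between replicates is unknown. The lists hold no score below 3, which limits what can be seen in weakly bound mRNAs.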
